A study of Mus musculus with 8 samples.

Results

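The genes described here are the very long ones, the 218 autosomal protein-coding genes of the GENCODE M21 mouse annotation whose body spans 500 kb or more, out of 20807 such genes on the 19 autosomes. They were chosen by length alone. Their median span was 733 kb, 55 of them spanned 1 Mb or more, and each held between 9 and 88 usable bins of 50 kb, with a median of 15. For each gene the HiC contacts inside its body, and those that join its start to its end, were set against the contacts of all autosomal bin pairs at the same distance in the same library. Another 487 genes of 250 to 500 kb and 1091 genes under 250 kb held enough bins (3 or more) to be measured the same way, so that tests of gene bodies ran over 1796 genes.

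The libraries were in situ HiC of naive splenic B cells of male C57BL/6 mice, isolated by negative selection, labelled with the division dye CTV and stimulated in culture by lipopolysaccharide (LPS), which makes B cells divide. There were 4 groups of 2 biological replicates, namely 3 h and 10 h of culture and, both at 33 h, imminent division and pre-S. The 3 h, 10 h and imminent division cells were sorted as undivided CD69+ cells of the highest CTV. Pre-S cells came from C57BL/6 FUCCI mice, whose fluorescent reporters follow the cell cycle, and were sorted as mAG- mKO2hi, so the FUCCI transgene and the gate changed together with that group and cannot be told apart from it. HiC holds no expression, so the cell type could not be checked against marker genes. The labels do not say which animals gave which replicate, and p-values therefore measure only the spread between these libraries.

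Very long genes are mostly made of introns, and many code for adhesion molecules, ion channels and receptors of neurons, cells in which they are transcribed over their full length. In lymphocytes most of these are silent and lie in the B compartment, the part of the nucleus that holds gene-poor, late-replicating chromatin. A smaller number are transcribed in most cells or in lymphocytes and lie in the A compartment, with the active genes. Transcription, loop extrusion by cohesin and compartment membership are all known to shape the contacts inside a gene body. Some very long genes host common fragile sites, which break when replication is slowed.

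Libraries held 88703088 to 218945191 read pairs, of which 70.9% to 75.1% of the autosomal pairs were within a chromosome. The median member had 2960 body contacts in the shallowest library and 9176.5 in the deepest, and none had fewer than 863 in any library. Imminent division replicate 2 stood apart on the sex chromosomes, with 3.74% of read ends on X and 0.049% on Y, against 2.39% to 2.84% and 0.0804% to 0.123% in the other 7 libraries. All mice are stated to be male, and whether this library departs from that was not tested. The autosomal values of this library are used here, and the main results that rest on it are also given without it.

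Most of the members lay in compartment B. Compartments were called at 100 kb from the summed maps of these same 8 libraries. A gene was put in class B when at most 20% of its bins were A, in class A when at least 80% were, and in the mixed class otherwise. Of the 218 members, 156 (71.6%) were B, 30 were mixed and 32 (14.7%) were A. Of the 250 to 500 kb genes 44.1% were B, and of those under 250 kb 23.7%. GC content moved with length too, with a median of 40.04% in the members, 41.8% in the 250 to 500 kb genes and 42.8% in the shorter genes. The density of MboI cutting sites, which limits how many contacts a bin can give, was 2.40, 2.39 and 2.38 sites per kb.

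The 32 A members include most of the listed genes that lymphocytes use. Of 21 members on a list of genes used in lymphocytes or in most cells, 16 were A, 3 were mixed and 2 were B, the latter being Nbea and Ptprg. Of 51 members on a list of adhesion and guidance genes 47 were B, and of 35 on a list of ion channels and synaptic proteins 32 were B.

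Contacts inside gene bodies differed between the classes, which is a description here, since the classes come from the same maps. The observed count over the count expected at the same distances (O/E) had a median over the B members of 0.594 and 0.665 in the 3 h libraries, 0.640 and 0.657 at 10 h, against 0.758 and 0.683 at imminent division and, at pre-S, 0.765 and 0.762. On this scale the median B member at 3 h had fewer contacts inside its body than the average stretch of autosome of its length, and all 4 of the 33 h libraries lay above all 4 earlier ones. The level depended on the expectation: with the interchromosomal coverage of the bins multiplied into it, the same median was 1.48 and 1.38 at 3 h and 1.20 to 1.57 in the other 6 libraries, above 1 in each. The medians over the A members were 1.28 and 1.25, 1.29 and 1.28, 1.21 and 1.30, and 1.24 and 1.25 in the same order. They lay above expectation throughout, and the groups overlapped.

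**Figure D1:**
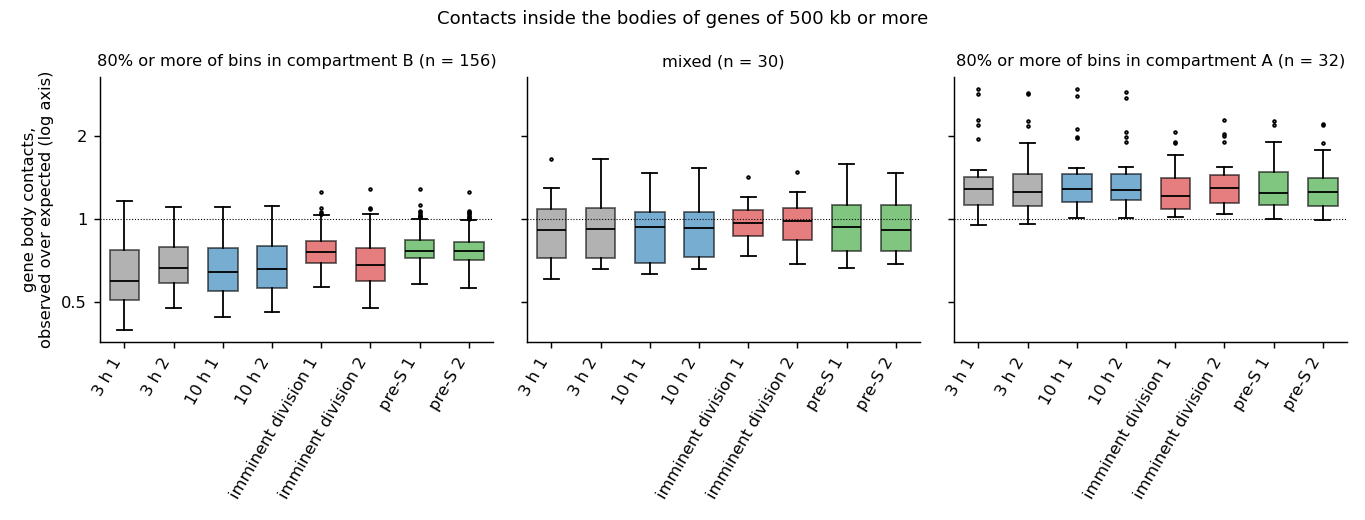
Gene body contacts (observed over expected, log axis) of the 156 B, 30 mixed and 32 A members in each of the 8 libraries, as boxes of the quartiles with the median as a line and whiskers to 1.5 times the box, and members beyond them as circles. The B boxes sit below 1, with medians of 0.594 to 0.665 at 3 h and 0.683 to 0.765 at 33 h, and the A boxes sit above 1.

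The members at the 2 ends of this scale differ in what they code for. The 5 with the highest mean O/E at 3 h were Lpp, Foxp1, Rasgef1b, Rad51b and Dock2. Lpp codes for a LIM-domain protein of focal adhesions, Foxp1 for a forkhead transcription factor that B cell development needs, Rad51b for a DNA repair protein, and Dock2 for the Rac activator that lymphocytes use to migrate. Lpp stood at 2.96 and 2.86 at 3 h, and Rad51b at 2.19 and 2.17. The 5 with the lowest were Galnt13, Adgrl3, Erbb4, Cadm2 and Cdh18, which code for a glycosyltransferase, a latrophilin, a neuregulin receptor, an immunoglobulin adhesion molecule and a cadherin. Galnt13 stood at 0.403 and 0.473, and Adgrl3 at 0.394 and 0.486. Rasgef1b is a case of annotation: it spans 512 kb in GENCODE and 35.5 kb in RefSeq.

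Between 3 h and 10 h no change of gene body contacts was called with distance alone in the expectation. The edgeR quasi-likelihood test called 0 of the 218 members and 0% of all 1796 genes at an FDR of 5%, DESeq2 called 0 members, and 9 members had an unadjusted p under 0.05. Once bin coverage entered the expectation, edgeR called 1 member higher and 28 lower at 10 h, 27 of the falls in class B (median of B members -0.14), against 21 higher and 43 lower of all 1796 genes. The median log2 change with distance alone was 0.023 in the members and 0.011 in all genes. Log2 changes are given throughout as the later time over the earlier, and as imminent division over pre-S where those groups are compared. With distance alone the largest change of the named lymphocyte genes was that of Exoc4, a subunit of the exocyst. It read 1.14 and 1.10 at 3 h and 1.25 and 1.26 at 10 h (log2 change 0.17, edgeR FDR 0.358). With bin coverage Exoc4 had a change of -0.027 (FDR 0.839), and Foxp1 was the 1 member called higher (0.22, FDR 0.0289).

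At 33 h the calls split by compartment when distance alone set the expectation. Body contacts of many B members, among them genes of neurons, rose, and those of a small number of A members fell. The A members fell in a share near that of all A genes (21.9% against 22.3% at imminent division, 31.2% against 28% at pre-S). Genes used in lymphocytes were among both the falls and the rises. From 10 h to imminent division 67 members rose and 15 fell, against 19.4% rising and 14.7% falling among all genes. From 10 h to pre-S 109 rose and 18 fell, against 20% and 17.9%. The pre-S direction turned with bin coverage in the expectation, to 34 rising and 69 falling (median -0.045), and against pairs of the same compartment class 67 rose and 52 fell (median 0.0061). Of all 1796 genes, 342 rose and 249 fell at pre-S with bin coverage (median 0.037), and 373 and 355 against pairs of the same class. With bin coverage 90 of the 109 that rose had a change below 0, and 62 of them were called lower by edgeR, while 3 were still called higher. Without imminent division replicate 2, the median log2 change was 0.15 at imminent division (all genes 0.017) and 0.15 at pre-S (all genes -0.0058). The count of 82 calls at imminent division was 17 without 10 h replicate 1, 26 without 10 h replicate 2 and 39 without imminent division replicate 1. The count of 127 at pre-S was 45 without 10 h replicate 1, 75 without its replicate 2, 30 without pre-S replicate 1 and 84 without its replicate 2. The median log2 change was 0.11 at imminent division (all genes 0.030) and 0.15 at pre-S (all genes -0.0054), and without imminent division replicate 1 the first was 0.058. Both comparisons share the 10 h libraries. All 4 of the 33 h libraries lay above all 4 earlier ones for 100 members, against 22.6% of all genes, and below them for 23, against 18.2% of all genes. With TMM scaling 106 members rose and 8 fell at imminent division, against 322 rising and 369 falling of all 1796 genes.

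By class, 56 B members rose and 4 fell at imminent division (median 0.14), and 98 rose and 4 fell at pre-S (median 0.21). In class A, 2 rose and 7 fell at imminent division (median -0.066), and 3 rose and 10 fell at pre-S (median -0.096). Over all A genes 22.3% fell at imminent division and 28% at pre-S, against 21.9% and 31.2% of the A members, and over all B genes 28.7% and 43.2% rose, against 35.9% and 62.8% of the B members. Of the A genes of 250 to 500 kb, 32.6% and 39.6% fell. Against pairs of the same compartment class the A members turned, to 9 rising and 6 falling at imminent division (median 0.023) and 12 and 3 at pre-S (median 0.038). With bin coverage 4 rose and 14 fell at imminent division, but 6 rose and 1 fell at pre-S (median 0.063). The shares over all A genes are not given on either of these scales. Without imminent division replicate 2, 103 B members rose and 6 fell at imminent division, and 2 A members rose and 13 fell. Shorter genes of compartment B moved the same way: 72 of 215 B genes of 250 to 500 kb rose at imminent division and 96 at pre-S (medians 0.12 and 0.14), and 53 and 78 of the 259 shorter ones (0.093 and 0.12). Whether length itself moves with the change was not tested.

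**Figure D2:**
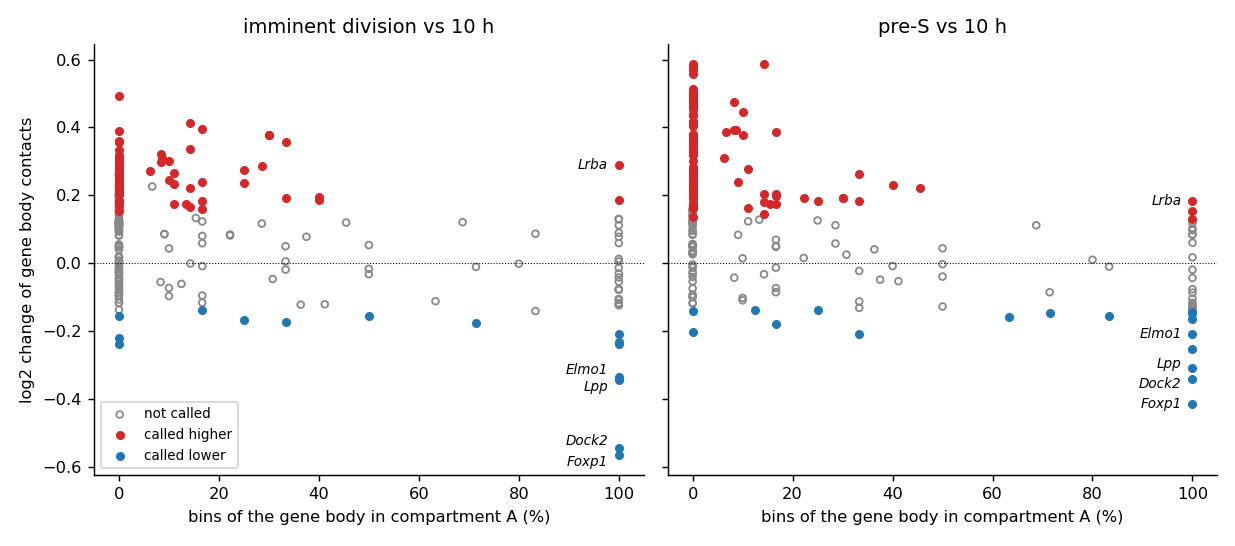
Log2 change of gene body contacts of each of the 218 members from 10 h to imminent division (left) and to pre-S (right), against the share of its bins in compartment A. Filled points were called at an FDR of 5% (red higher, blue lower). Most red points sit at the B end (56 and 98 B members), and Foxp1, Dock2, Lpp and Elmo1 are the lowest named points at the A end, where Lrba is the highest.

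With distance alone in the expectation, Foxp1 showed the steepest fall. This gene (chromosome 6, 98925338 to 99522721 of GRCm38, minus strand, 597 kb, every bin in A) had a body O/E of 2.86 and 2.85 at 3 h, 2.96 and 2.88 at 10 h, against 1.91 and 2.03 at imminent division and, at pre-S, 2.19 and 2.19. Every 33 h library lay below every earlier one. The log2 change from 10 h was -0.57 (SE 0.050, edgeR FDR 2.8e-05) at imminent division and -0.42 (SE 0.050, FDR 0.000843) at pre-S.

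Dock2 and Elmo1, whose products work together as a Rac activator, fell as well. Dock2 (chromosome 11, 34226815 to 34783892, minus strand, 557 kb) read 1.96 and 1.89 at 3 h, 1.97 and 1.90 at 10 h, against 1.27 and 1.38 at imminent division and, at pre-S, 1.52 and 1.54. Its log2 change was -0.55 (SE 0.053, edgeR FDR 5.47e-05) and -0.34 (SE 0.053, FDR 0.00168). Elmo1 (chromosome 13, 20090596 to 20608353, plus strand, 518 kb) read 1.41, 1.45, 1.45 and 1.44 in the 4 early libraries, 1.10 and 1.19 at imminent division and, at pre-S, 1.27 and 1.23. The groups did not overlap in either gene, and Elmo1 fell by 0.34 (FDR 0.000872) and by 0.21 (FDR 0.00937). Dock1, a relative of Dock2 that most cells use and that lay wholly in B, also fell at imminent division, from 0.857 and 0.847 at 10 h to 0.732 and 0.713 (log2 change -0.24, FDR 0.00367). At pre-S it read 0.772 and 0.819 and was not called (FDR 0.132). With bin coverage its change at imminent division was -0.0072 (edgeR FDR 0.936).

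Lpp (chromosome 16, 24393507 to 24992578, plus strand, 599 kb) read 2.96 and 2.86, 2.81 and 2.74, 2.08 and 2.29, and 2.27 and 2.21 in the order 3 h, 10 h, imminent division, pre-S. It fell by 0.35 at imminent division (edgeR FDR 0.00115) and by 0.31 at pre-S (FDR 0.00287). Rad51b, a neighbour of Lpp and Foxp1 on the scale of body contacts, read 2.12 and 2.08 at 10 h, 1.89 and 2.01 at imminent division (FDR 0.108) and 1.90 and 1.89 at pre-S (log2 change -0.15, FDR 0.0366). With bin coverage it was called lower at imminent division (-0.32, edgeR FDR 2.22e-05) and not at pre-S (-0.13, FDR 0.0908).

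Some genes of this kind were called higher with distance alone in the expectation. Lrba (chromosome 3, 86224680 to 86782692, plus strand, 558 kb, every bin in A), which codes for a trafficking protein whose loss causes an immune deficiency, read 1.21 and 1.22 at 3 h, 1.28 and 1.26 at 10 h, against 1.56 and 1.54 at imminent division and, at pre-S, 1.47 and 1.41. It rose by a log2 of 0.29 (edgeR FDR 0.00116) and 0.18 (FDR 0.0108). Rabgap1l, which codes for a GTPase activator of Rab proteins, rose from 1.26 and 1.25 to 1.41 and 1.44 (log2 change 0.19, FDR 0.0101). Neither rise at imminent division held once bin coverage entered the expectation, with Lrba at -0.066 and Rabgap1l called lower at -0.23 (edgeR FDR 0.00115). Over the 21 listed members, 2 rose and 6 fell at imminent division (Foxp1, Dock2, Elmo1, Exoc4, Wwox and Rora) and 3 rose and 7 fell at pre-S, with medians of -0.068 and -0.044. These counts are to be read against class A, which held 16 of the 21. Among all A genes, 11.7% were called higher and 22.3% lower in the former comparison, with 6.44% higher and 28% lower in the latter. Of the 6 falls, those of Exoc4, Wwox and Rora were not called with bin coverage, at 0.13, 0.052 and 0.061. The others include Inpp4b, a lipid phosphatase, at 1.497 and 1.545 at 10 h and 1.487 and 1.527 at imminent division, and Zbtb20, a zinc finger transcriptional repressor, at 1.35 and 1.33, then 1.46 and 1.48 (FDR 0.0609). Listed members called lower at imminent division only with bin coverage include Inpp4b (-0.26, edgeR FDR 0.000181) and Smyd3 (-0.53, FDR 6.28e-10). With distance alone Smyd3 had a change of -0.11 (FDR 0.109).

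**Figure D3:**
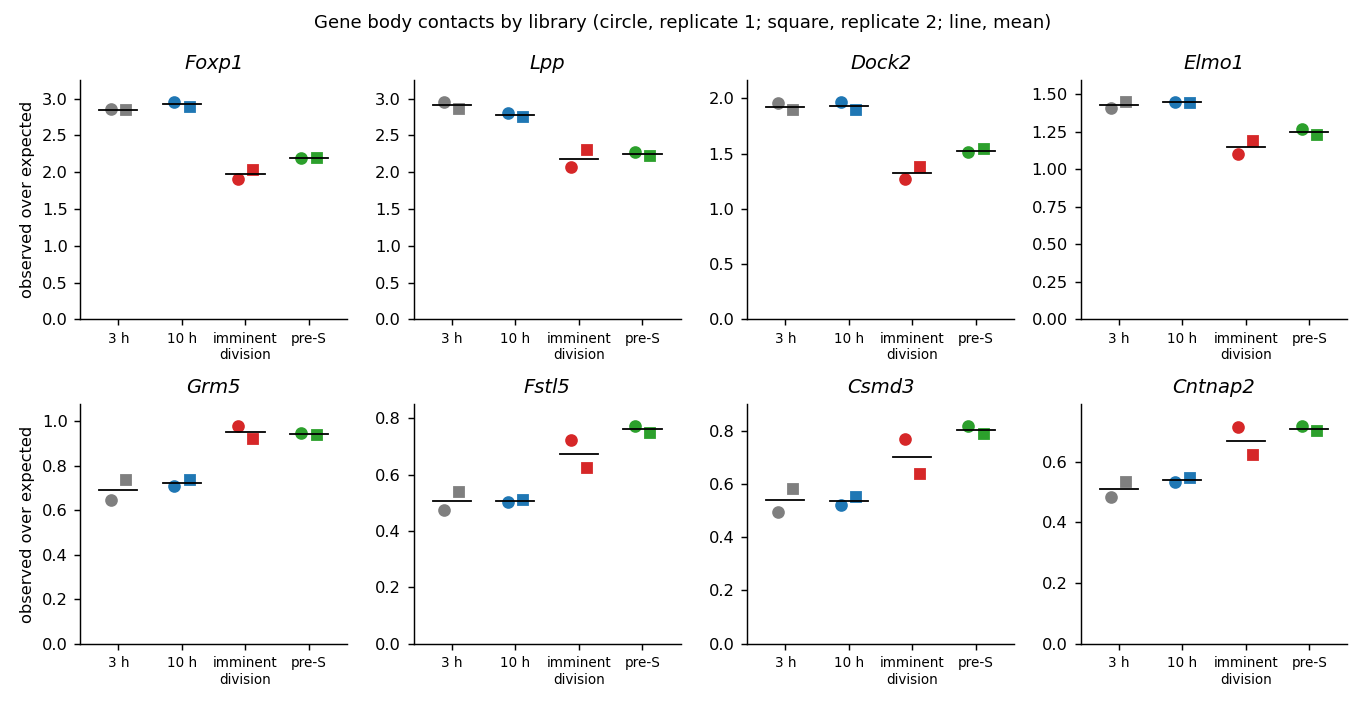
Body contacts (observed over expected, axis from 0) of 4 A members (top) and 4 B members (bottom) in each library, by group, with the group mean as a line. Foxp1, Lpp, Dock2 and Elmo1 are lower in all 4 of the 33 h libraries, and Grm5, Fstl5, Csmd3 and Cntnap2 are higher.

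Among the genes that rose, Grm5, a metabotropic glutamate receptor (chromosome 7, 87584168 to 88134907, plus strand, 551 kb, class B), read 0.647 and 0.738 at 3 h, 0.707 and 0.735 at 10 h, against 0.979 and 0.920 at imminent division and, at pre-S, 0.948 and 0.939. Its 33 h values came close to expectation and did not overlap the earlier ones. The log2 change was 0.40 (SE 0.061, edgeR FDR 0.000888) and 0.39 (SE 0.062, FDR 0.00184). Fstl5, a secreted follistatin-like protein (chromosome 3, 76074270 to 76710019, plus strand, 636 kb), read 0.473 and 0.539, 0.502 and 0.510, 0.723 and 0.625, and 0.772 and 0.748 in the same order of groups, with log2 changes of 0.41 (FDR 0.00193) and 0.59 (SE 0.075, FDR 0.000858). With bin coverage Fstl5 changed by -0.11 at imminent division (edgeR FDR 0.161), and Grm5 was called lower at pre-S (-0.23, FDR 0.00721). Edil3, an integrin-binding secreted protein, Sgcz, a sarcoglycan, Dgkb, a diacylglycerol kinase, and Adgrb3, an adhesion receptor of synapses, had log2 changes of 0.33, 0.31, 0.31 and 0.20 at imminent division, with 0.49, 0.56, 0.40 and 0.48 at pre-S, and each passed in both comparisons. With bin coverage these 4 were still called higher at imminent division, at 0.18, 0.16, 0.34 and 0.30, and had changes of -0.11, -0.35, -0.12 and -0.078 at pre-S.

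Csmd3 (chromosome 15, 47580637 to 48792063, minus strand, 1211 kb), which codes for a large transmembrane protein of CUB and sushi domains, read 0.522 and 0.552 at 10 h, against 0.769 and 0.637 at imminent division and, at pre-S, 0.819 and 0.787 (log2 changes 0.39 and 0.58). In this gene, as in Fstl5 and the median B member, imminent division replicate 2 lay below replicate 1. Erbb4 read 0.400 and 0.487 at 3 h and 0.695 and 0.674 at pre-S, and rose by 0.36 at imminent division (edgeR FDR 0.0194) and 0.59 at pre-S (FDR 0.00259). Of the other members lowest at 3 h, Cadm2 passed in both comparisons, while Galnt13, Adgrl3 and Cdh18 passed at pre-S (FDR 0.00456, 0.00297 and 0.00613) and not at imminent division (FDR 0.109, 0.0669 and 0.0508). On the scale with bin coverage the pre-S changes of these genes were below 0 and called lower by edgeR: -0.37 in Csmd3, -0.43 in Erbb4, -0.51 in Cadm2, -0.38 in Galnt13, -0.37 in Adgrl3 and -0.41 in Cdh18. At imminent division Erbb4 (-0.18, FDR 0.0184) and Adgrl3 (-0.18, FDR 0.0206) were then called lower too, and Csmd3 (0.057, FDR 0.459) and Cadm2 (-0.019, FDR 0.823) were not called.

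Kirrel3, an adhesion molecule of neurons, read 1.04 and 1.02 at 3 h, 1.07 and 1.06 at 10 h, against 0.968 and 0.966 at imminent division and, at pre-S, 0.926 and 0.954, the latter a log2 change of -0.18 (edgeR FDR 0.0106). The change at imminent division was -0.14 (FDR 0.0336), and with bin coverage the gene was called higher there, at 0.29 (FDR 0.000102), and read 0.10 at pre-S. Its interchromosomal coverage fell with it, from 1.16 and 1.16 at 10 h to 1.02 and 1.03 at pre-S.

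The lists by function are given as counts, to be read against the shares of all genes (19.4% rising and 14.7% falling at imminent division, 20% and 17.9% at pre-S) and against those of B members rising (35.9% and 62.8%), since most of the adhesion, channel and fragile site members lay in B. Of 51 adhesion and guidance members 13 rose and 3 fell at imminent division (median 0.11), and 30 rose and 2 fell at pre-S (median 0.23). Of 35 channel and synaptic members 18 rose and 0 fell at imminent division (median 0.17, with 23 at an unadjusted p under 0.05), and 21 rose and 2 fell at pre-S (median 0.25). Among 18 transcription and RNA regulators 4 rose and 3 fell, then 5 and 2, with medians of -0.025 and 0.0033. The 18 hosts of common fragile sites had 8 rising and 4 falling at imminent division (median 0.18), and 10 and 2 at pre-S (median 0.25). The lists hold 125 of the members, and some genes are on more than 1 list. The lists were not counted with bin coverage in the expectation, under which the pre-S direction over all members turned.

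How the expectation was built mattered for these counts. When each bin pair was set against pairs of its own compartment class at its distance, the B members' median change was 0.0064 at imminent division and 0.0086 at pre-S, and the calls over all members were 46 up and 51 down, and 67 up and 52 down. Against other B-B pairs at the same distance, the B members thus had a median change near 0. Over all genes 373 rose and 346 fell at imminent division on that scale, and 373 and 355 at pre-S. The median B member's O/E on that scale was 0.942 and 0.977 at 3 h, 0.978 and 0.965 at 10 h, against 0.995 and 0.966 at imminent division and, at pre-S, 0.997 and 1.01.

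The coverage of the bins moved as well. Interchromosomal coverage (1 is the average usable autosomal bin) had a median over the B members of 0.660 and 0.711 at 3 h, 0.713 and 0.721 at 10 h, against 0.755 and 0.681 at imminent division and, at pre-S, 0.825 and 0.811. Both pre-S libraries were highest, as they were for body contacts, and imminent division replicate 2 lay below the 10 h libraries. The part of this coverage in the body contacts was not tested beyond the alternative given next. In class A the values were 1.17 to 1.20 at 3 h and 10 h, 1.17 and 1.23 at imminent division and, at pre-S, 1.10 and 1.08. With that coverage multiplied into the expectation, 93 members rose and 27 fell at imminent division, against 442 and 388 of all 1796 genes. At pre-S, by contrast, 34 members rose and 69 fell, against 342 and 249 of all genes, and the B members had a median of -0.10. Of the 67 rises at imminent division with distance alone, 33 were called the same way and 5 the opposite way, and of the 15 falls 5 and 2. The rise of B members at pre-S thus turned into a fall on that scale, and the falls of Foxp1, Dock2, Lpp and Elmo1 at pre-S were no longer called (changes of -0.063, 0.11, -0.045 and 0.086). The rises of Lrba and Grm5 at imminent division were not called on that scale either (-0.066 and 0.14). Fstl5 at pre-S had a change of -0.38 (edgeR FDR 1.16e-05) on that scale. The falls of Foxp1, Dock2, Elmo1 and Lpp from 10 h to imminent division, and the rise of the protocadherin locus described next, were called under each of the 18 alternatives run for them, with a range of -0.83 to -0.44 for Foxp1 and -0.82 to -0.25 for Dock2.

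The clustered protocadherins on chromosome 18 rose at imminent division. In GENCODE, Gm37013, Gm42416 and Gm37388 are overlapping models of that locus, of which Gm37013 and Gm42416 hold the same bins, so they are 1 observation. In the counts of members, those of separation included, each model is nonetheless counted apart. Gm37013 (36969916 to 37833296, plus strand, 863 kb) holds 33 other coding genes, 30 of them protocadherins, the adhesion molecules that give neurons their surface identity. It read 0.648 and 0.675 at 3 h, 0.658 and 0.658 at 10 h, against 0.874 and 0.838 at imminent division and, at pre-S, 0.754 and 0.748. Pre-S lay between 10 h and imminent division, with log2 changes of 0.38 (SE 0.048, edgeR FDR 0.000244) and 0.19 (FDR 0.0102). Bin coverage of the locus was 1.17 to 1.27 in all libraries. With it in the expectation the changes were 0.25 (FDR 0.000662) and 0.038 (FDR 0.674).

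The 5 longest members were Gm20388 (4435 kb), Fgfr2 (2961 kb), Ptprd (2271 kb), Cntnap2 (2245 kb) and Lsamp (2197 kb). In the longest pair the length is a matter of annotation: Gm20388 is a gene model that spans 71 other coding genes, and Fgfr2, a fibroblast growth factor receptor, spans 104 kb in RefSeq. Gm20388 lay in A and fell from 1.53 and 1.51 at 10 h to 1.24 and 1.33 at imminent division (log2 change -0.24, edgeR FDR 0.0189). Ptprd, Cntnap2 and Lsamp, which code for adhesion proteins of neurons, lay in B. Cntnap2 read 0.484 and 0.533 at 3 h, 0.532 and 0.548 at 10 h, against 0.715 and 0.624 at imminent division and, at pre-S, 0.719 and 0.701, and rose by 0.31 (FDR 0.00556) and 0.39 (FDR 0.0023). Ptprd rose at pre-S by 0.46 (FDR 0.00424), while at imminent division its change of 0.24 had an FDR of 0.0624. With bin coverage the pre-S change was -0.47 in Ptprd, called lower, and -0.011 in Cntnap2 (FDR 0.9), and Cntnap2 was not called at imminent division either (0.11, FDR 0.0925). Of all members, 204 span 500 kb or more in RefSeq too, 8 are shorter there and 6 were not matched. Over those 204, 64 rose and 14 fell at imminent division and 104 rose and 15 fell at pre-S.

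At the length threshold, the members just inside were Edil3 (502 kb), Dock1 (503 kb) and Car10 (504 kb), with log2 changes to imminent division of 0.33, -0.24 and -0.031. The genes just outside were Pde1c (499 kb), Dnm3 (496 kb) and Cacna1e (494 kb), with 0.14, 0.31 and 0.080.

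In class B the imminent division libraries stood further above the early ones at long distance than between neighbouring bins. For neighbouring bins, 50 kb apart, the O/E over all B members was 0.675 and 0.727 at 3 h, 0.706 and 0.721 at 10 h, against 0.773 and 0.703 at imminent division and, at pre-S, 0.821 and 0.809. At this distance imminent division replicate 2 fell within the range of the early libraries. At 500 kb the values were 0.652 and 0.732, 0.686 and 0.691, 0.872 and 0.806, and 0.827 and 0.812, and all 33 h libraries lay above all earlier ones. In the 43 B members long enough to hold pairs 1 Mb apart, the values were 0.756 and 0.869, 0.781 and 0.781, 1.08 and 0.956, and 1.01 and 0.950. When only pairs at least 250 kb apart were counted, 121 of all members rose and 12 fell at imminent division, and 101 rose and 6 fell at pre-S. The share over all genes is not given for these far pairs. In class A the values at 500 kb, over the 29 members long enough, were 1.64 and 1.55 at 3 h, 1.76 and 1.74 at 10 h, against 1.49 and 1.58 at imminent division and, at pre-S, 1.58 and 1.58. The 33 h values lay below those at 10 h and overlapped those at 3 h. Each of these values sums over 181 bin pairs, so longer members weigh more. Gm20388, the longest member and a case of annotation, weighs most.

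**Figure D4:**
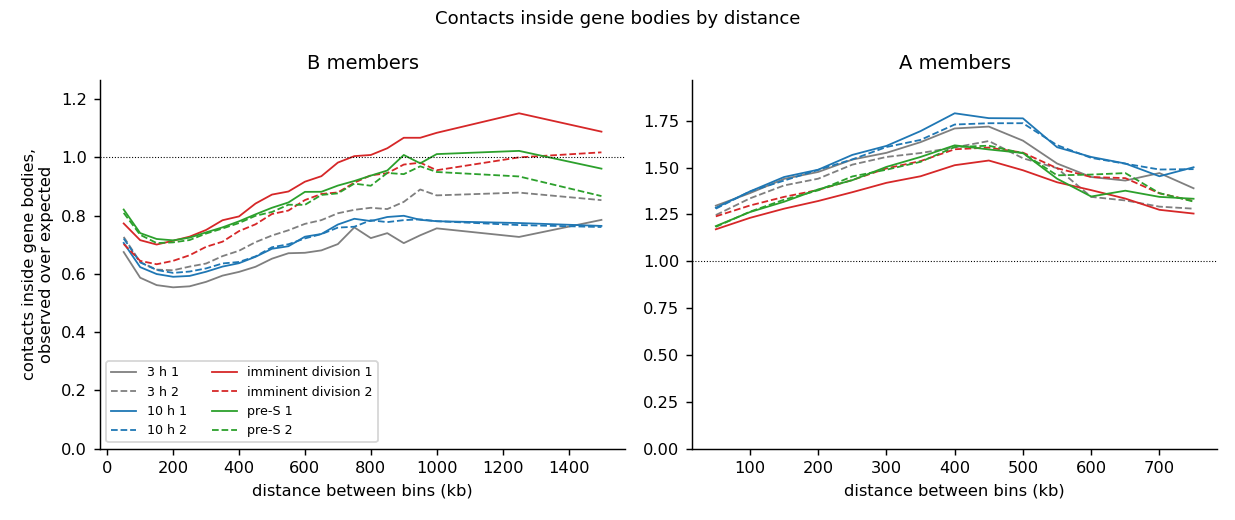
Contacts inside gene bodies (observed over expected, axis from 0) by the distance between bins, summed over B members (left, to 1.5 Mb) and A members (right, to 750 kb), 1 line per library (solid replicate 1, dashed replicate 2). In B the red and green 33 h lines lie above the early ones at 500 kb (0.806 to 0.872 against 0.652 to 0.732), with pre-S above them at 50 kb already, and in A they run below the 10 h lines. Fewer genes are long enough at the right of each panel. Longer members weigh more in the sums, in A most of all Gm20388.

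Contacts between the start and the end of a gene rest on a single bin pair and few read pairs, a median of 6 to 24 per library, and 199 of the 218 members had the summed count of 40 needed for a test. The other 19 were not tested. The median O/E was 0.857 and 0.886 at 3 h, 0.923 and 0.881 at 10 h, against 1.13 and 1.03 at imminent division and, at pre-S, 0.971 and 1.00. The highest values were at imminent division, in both libraries. There 10 members rose and 4 fell, against 6.04% and 6.88% of all 1772 genes tested, with a median of 0.22 (all genes 0.091). Without imminent division replicate 2, 6 rose and 3 fell, and DESeq2 called 0. The 14 calls became 6 without imminent division replicate 1, 3 without 10 h replicate 1 and 2 without its replicate 2.

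In the other comparisons edgeR called 0 members and DESeq2 0. Between 3 h and 10 h 0% of all genes were called and 15 members had an unadjusted p under 0.05. At pre-S against 10 h 0.79% of all genes rose and 1.47% fell, and 14 members had an unadjusted p under 0.05. At imminent division against pre-S 0.0564% rose and 0.169% fell, and 14 members had such a p. When the 3 x 3 bin pairs around the start and end were summed, 92 members rose and 9 fell at imminent division and 23 rose and 4 fell at pre-S. No share over all genes is given for the summed pairs, so these counts are not set apart from other genes.

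Foxp1, Lpp and Dock2, 3 of the 5 members with the densest bodies at 3 h, had starts and ends in contact well above expectation. Foxp1 had 68 and 80 start-end pairs at 3 h, 80 and 108 at 10 h, against 99 and 137 at imminent division and, at pre-S, 61 and 62, which against expectation is 7.41 and 4.53, 6.02 and 6.18, 3.90 and 4.60, and 4.34 and 5.11. It fell by 0.52 on the log2 scale at imminent division (edgeR FDR 0.0122). Dock2 stood at 3.69 and 3.55 at 10 h and at 1.92 and 2.33 at imminent division, a fall of 0.75 (SE 0.187, FDR 0.00261), and Lpp at 5.72 and 5.55 and then 4.45 and 3.90 (FDR 0.0403). The fourth fall was Agbl4, which codes for a tubulin deglutamylase, on 18 and 17 read pairs against 12 and 14 (log2 change -1.10, FDR 0.033, and 0.0943 without imminent division replicate 2).

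The 3 rises of smallest p were in B genes with few read pairs. Iqcm, an IQ-motif protein gene, had 1 and 9 pairs at 3 h, 4 and 7 at 10 h, against 28 and 30 at imminent division and, at pre-S, 15 and 11, and rose by 1.53 at imminent division (SE 0.427, edgeR FDR 0.00791). Grid1, a glutamate receptor of the delta family, had 4 and 5 pairs at 10 h, against 19 and 31 at imminent division and, at pre-S, 4 and 4. It rose by 1.65 (SE 0.473, FDR 0.00924, and 0.0954 without imminent division replicate 2), while its body contacts read 0.663 and 0.664, then 0.681 and 0.653 (FDR 0.918). Hs6st3, a heparan sulfate sulfotransferase, had 11 and 8 pairs at 10 h and 40 and 34 at imminent division (log2 change 1.15, FDR 0.0137). With bin coverage Grid1 and Hs6st3 were still called and Iqcm was not (FDR 0.101), nor was the fall of Dock2 (FDR 0.104).

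Separation from the flanks asks whether a gene body keeps its contacts to itself. It is the log2 ratio of the O/E inside the body to the O/E between the body and stretches of the same length on both sides, so 0 means no separation. The median over the members was -0.050 and -0.051 at 3 h, -0.021 and -0.0010 at 10 h, against -0.073 and -0.11 at imminent division and, at pre-S, 0.0023 and -0.017. A typical very long gene was thus not set off from its surroundings, and both imminent division libraries lay lowest. From 10 h to imminent division separation fell in 60 members and rose in 14 by limma, against 13.2% and 5.85% of all genes, and 52 of the falls were in class B. They are 33.3% of the B members, against 24.1% of all B genes and 29.3% of B genes of 250 to 500 kb. Without imminent division replicate 2, 16 fell and 7 rose, without replicate 1 4 fell and 3 rose, and the total was 29 without 10 h replicate 1 and 32 without its replicate 2. At pre-S 7 rose and 2 fell, against 1.45% and 1.17%, and leaving out any 1 of the 10 h, imminent division or pre-S libraries left 0. Between 3 h and 10 h limma called 0 members and 0% of all genes, and 25 members had an unadjusted p under 0.05. On the scale with bin coverage limma called 0 members at pre-S (60 at an unadjusted p under 0.05), so the pre-S calls of single genes given next were lost there.

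Dock2 was among the 3 members most set apart at 10 h, with Rasgef1b and Foxp1, and fell the most at imminent division. It stood at 1.00 and 1.10 at 3 h, 1.12 and 1.02 at 10 h, against 0.525 and 0.512 at imminent division and, at pre-S, 0.868 and 0.891. The change was -0.56 (SE 0.053, limma FDR 0.0013) at imminent division and -0.20 (FDR 0.0714) at pre-S. Foxp1 went from 1.11 and 1.05 at 10 h to 0.730 and 0.799 (FDR 0.00505) and 0.853 and 0.851 (FDR 0.0425).

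Zfhx3, a homeobox and zinc finger transcription factor gene, went from 0.297 and 0.312 at 10 h to -0.0049 and 0.015 at imminent division (limma FDR 0.00348), with pre-S between at 0.163 and 0.178. With bin coverage it was not called (FDR 0.0567). Gabrg3, a GABA receptor subunit gene, went from 0.109 and 0.139 to -0.198 and -0.189 (FDR 0.00336) and stood at 0.107 and 0.142 at pre-S. Its body contacts were not called at imminent division (FDR 0.526). Fhit, a fragile site gene, fell by 0.32 (FDR 0.00369) in the same comparison.

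Separation rose in Rad51b, from -0.442 and -0.442 at 10 h to -0.151 and -0.172 at imminent division and, at pre-S, to -0.186 and -0.237 (limma FDR 0.00336 and 0.0373). The protocadherin model Gm37013 rose from 0.244 and 0.239 to 0.726 and 0.617 and to 0.529 and 0.512 (FDR 0.00336 and 0.0425). Gm20388 and Dlgap1, a postsynaptic scaffold gene, also rose in both comparisons, and Thsd4, an extracellular matrix gene, fell in both.

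**Figure D5:**
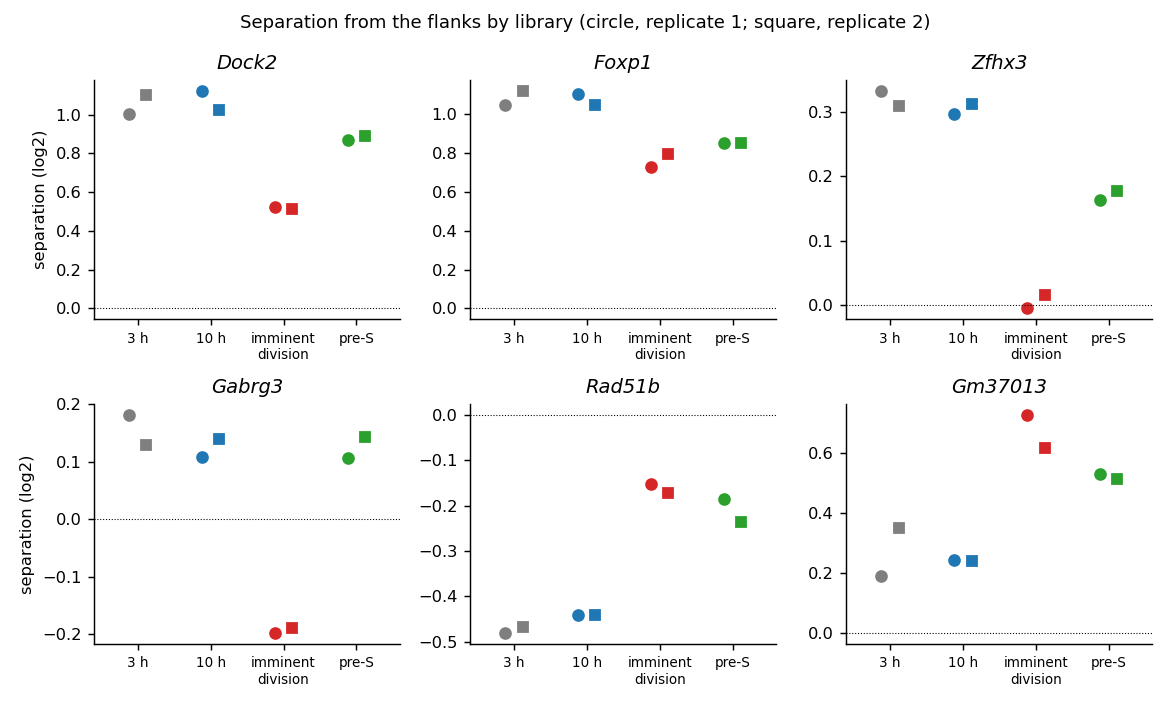
Separation from the flanks (log2, 0 is none; axes differ in range) of 6 members in each library, by group. Dock2, Foxp1, Zfhx3 and Gabrg3 are lowest at imminent division, with Gabrg3 at -0.198 and -0.189 there and above 0.1 in all other libraries, while Rad51b and Gm37013 are higher at 33 h than before.

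Single bin pairs split by class too, at imminent division only among those that weakened. Of 1458261 bin pairs tested across the autosomes for differential interactions (DIs), 36095 lay inside members. From 3 h to 10 h edgeR called 0 of them, 2047 had an unadjusted p under 0.05, and 0.000549% of all pairs were stronger and 6.86e-05% weaker. DESeq2 was not run on bin pairs. From 10 h to imminent division 271 were stronger and 267 weaker (0.751% and 0.74% of the pairs inside members), against 0.645% and 1.39% of all pairs tested. Of all pairs under 1.5 Mb, a nearer base for pairs inside genes, 0.763% were stronger and 1.78% weaker. Inside A members 38 were stronger and 173 weaker (0.715% and 3.25% of their pairs), and inside B members 180 and 53 (0.701% and 0.207%). The stronger shares were thus alike in the classes A and B. Of the weaker pairs in class A, Gm20388, the annotation model over 71 coding genes, held 100, Foxp1 37 and Dock2 19. Most of the weaker pairs in class A thus lay in these genes. The shares over all pairs of each compartment are not given. Over the 204 members that are as long in RefSeq, 258 pairs were stronger and 156 weaker. At pre-S 456 were stronger and 65 weaker (1.26% and 0.18%), against 0.349% and 0.249%, and of these 438 and 5 were inside B members. Of all pairs under 1.5 Mb, 0.449% were stronger and 0.316% weaker at pre-S. With TMM factors the pre-S split was 240 stronger and 192 weaker. A stronger DI lay inside 98 members at imminent division and 91 at pre-S, and a weaker one inside 43 and 14. Longer members hold more pairs that can be called (36 in Dock2, 2555 in Gm20388). The share among other genes was not counted, so these counts cannot be called high or low. Without imminent division replicate 2 the counts at imminent division were 200 stronger and 129 weaker, without replicate 1 71 and 96, without 10 h replicate 1 37 and 77, and without 10 h replicate 2 15 and 53. The pre-S total of 521 was 77 without 10 h replicate 1, 70 without its replicate 2, 42 without pre-S replicate 1 and 154 without its replicate 2, with more stronger than weaker pairs in each. With bin coverage in the offsets the direction at pre-S turned, to 59 stronger and 421 weaker.

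In Foxp1 37 of 55 bin pairs inside the gene were weaker at imminent division and 0 stronger by edgeR, and in Dock2 19 of 36. At pre-S 13 and 1 of them were weaker. Gm20388 held 100 weaker pairs of 2555, and Gm37013 14 stronger pairs of 140. At pre-S the members with the most stronger pairs were Lrp1b, a lipoprotein receptor gene (26 of 774), Csmd3 (25 of 276), Ptprd (18 of 744) and Lrrc4c, a netrin-G ligand gene (16 of 339).

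In the direct comparison of imminent division with pre-S the result depended on the measure and on the expectation. For body contacts edgeR called 0 members and 0% of all genes, DESeq2 0, and 61 members had an unadjusted p under 0.05, with a median log2 difference of -0.068 (all genes 0.016). When imminent division replicate 1 was left out, members were called, most of them lower at imminent division. That group then rested on replicate 2 alone, the library that stood apart on the sex chromosomes. No share over all genes is given for that fit. With all libraries and bin coverage in the expectation, 127 members were higher and 27 lower (median 0.19), the opposite direction to distance alone. Against pairs of the same compartment class 13 were higher and 18 lower. Of all 1796 genes, 374 were higher and 436 lower with bin coverage (median -0.031), and 113 and 74 against pairs of the same class. Separation was lower at imminent division in 21 members and higher in 0 by limma (0.278% higher and 2.28% lower among all genes, and 104 members at an unadjusted p under 0.05), of which 19 were in class B. The calls include Gabrg3 (-0.32, FDR 0.0212), Dock2 (-0.36, FDR 0.0212) and L3mbtl4, a chromatin-reader gene (-0.29, FDR 0.0212, and 0.0529 with bin coverage). Leaving out any 1 of the 33 h libraries left 0 calls by limma, with 70 members at an unadjusted p under 0.05 without imminent division replicate 2, and leaving out 10 h replicate 1 left 5, its replicate 2 9. With bin coverage 5 members were higher and 8 lower.

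Inside members 19 bin pairs were stronger and 263 weaker at imminent division than at pre-S (0.0526% and 0.729%). Of all pairs 0.136% and 0.236% were, and of those under 1.5 Mb 0.162% and 0.301%. Of the 263 weaker pairs inside members, 249 were inside B members. Lrrc4c held 13 of them, Ptprd 10, Sgcz and Csmd3 8 each and Cadm2 7. Without imminent division replicate 2, 6 were stronger and 7 weaker, without replicate 1 27 and 460, without pre-S replicate 1 1 and 14, and without pre-S replicate 2 3 and 60. With bin coverage in the offsets 558 were stronger and 158 weaker, the opposite direction.

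Few genes changed the sign of their mean compartment component in both libraries of a group. From 3 h to 10 h the mean component over the gene body went from A to B in 2 members, Stpg2 and Pde4b, and in 11 of all 1796 genes, with 5 going the other way. Between 10 h and imminent division the mean component over the gene body went from B to A in Rgs6, a regulator of G protein signalling, and Dscam, an adhesion molecule of neurons, and from A to B in Celf2, an RNA-binding protein gene, and Fhit. Celf2 and Fhit did so at pre-S too. Over all genes 15 gained the A sign and 32 the B sign at imminent division, against 5 and 44 at pre-S. A gene was counted only when both libraries of a group had the same sign and both libraries of the other group the opposite sign. No test was run. Body contacts of Celf2 read 1.24 and 1.26 at 10 h, against 1.20 and 1.24 at imminent division and, at pre-S, 1.26 and 1.23.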

How the data were processed

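Reads had been mapped to mm10 in the diffHic pipeline, with duplicates, dangling ends and overly long fragments taken out, and the authors deposited 1 matrix of raw counts for each library, over pairs of bins 50 kb wide, with no scaling or balancing. The matrices carry no coordinates, so bins were rebuilt from MboI fragments of GRCm38. Of the autosomal bins, 749 with over 10% undetermined sequence or coverage over 4-fold from the median were left out, and 47339 were used. Gene body and start-end counts (summed count of at least 40) were tested with edgeR 4.0.16 (quasi-likelihood, R 4.3.3) in a one-way layout over all 8 libraries with the log expected count as offset. Separation was tested with limma 3.58.1, and DIs after the study's methods, with loess offsets, pairs under 1.5 Mb fitted apart, and abundance over 4-fold background. In place of its filters on blacklisted, centromeric and telomeric bins the bin filter above was used, and single bin pairs were counted without its step of clustering neighbouring DIs. P-values were adjusted by Benjamini-Hochberg over all genes or bin pairs. Scripts were tested on simulated data. DESeq2 1.42.0, other expectations and left-out libraries were alternatives. The members were set by length alone, but that rule, the gene lists and the tests were chosen with earlier results of these data known. Named genes were the 5 longest, the called members of smallest p per contrast and direction (5 for bodies, 3 for start-end and separation), the 5 highest and lowest at 3 h, 1 gene list, and those with most DIs. Sex chromosomes were not tested.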

Additional observations from a re-analysis of the deposited data

Results flagged for a closer look

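Imminent division and pre-S, both at 33 h, differed in separation and in single bin pairs, while for body contacts edgeR and DESeq2 called 0 members (61 at an unadjusted p under 0.05). Separation from the flanks differed in 21 members by limma, lower at imminent division in each, against 0.278% of all genes higher and 2.28% lower. Of the 282 bin pairs inside members that differed by edgeR, 263 were weaker at imminent division. Of all pairs 0.136% were stronger and 0.236% weaker, and of those under 1.5 Mb 0.162% and 0.301%. Both results were picked out because the difference between the groups was itself tested. With bin coverage in the expectation separation was higher in 5 and lower in 8, and 558 bin pairs were stronger and 158 weaker, the opposite direction. Separation calls were 6 with the replicate number as a block and 1 with flanks of 5 bins. The FUCCI transgene and the sort gate changed with the pre-S group and cannot be told apart from it, and without imminent division replicate 2 the counts were 0 and 13, and without replicate 1 0 and 487. Without the first or the second pre-S library they were 0 and 15, and 0 and 63.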

How the results depend on the processing

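Counts of called members and bin pairs moved with the expectation, the scaling, the bin pairs counted and the libraries used. With bin coverage in the expectation, body calls were 29 between 3 h and 10 h (1 higher, 28 lower), 103 at pre-S against 10 h (34 higher, 69 lower, the opposite direction) and 154 between imminent division and pre-S (127 higher, 27 lower). Start-end calls were then 22 at imminent division, 3 at pre-S and 7 between them, separation calls 0 at pre-S and 13 between the 33 h groups, and DIs 5 between 3 h and 10 h, 1311 at imminent division, 480 at pre-S and 716 between the 33 h groups, the last pair in the opposite direction. With bin coverage 90 of the 109 members that rose at pre-S and 14 of the 18 that fell had the opposite sign, as had 16 of the 67 and 6 of the 15 at imminent division. In the contrast that each gene was named for by its p, those with the opposite sign were Lrba (-0.066) at imminent division and, at pre-S, Fstl5 (-0.38), Edil3 (-0.11), Sgcz (-0.35), Dgkb (-0.12), Adgrb3 (-0.078), Dock2 (0.11), Elmo1 (0.086) and Kirrel3 (0.10). The cause was not tested. Against pairs of the same compartment class, 31 bodies differed between imminent division and pre-S, and start-end calls were 8 at imminent division, 1 at pre-S and 1 between them. Counting pairs at least 250 kb apart gave 133 body calls at imminent division and 15 between the 33 h groups, and at least 100 kb apart 10 between them. With 3 x 3 bin pairs, start-end calls were 3, 101, 27 and 21 in the order 10 h against 3 h, imminent division against 10 h, pre-S against 10 h and imminent division against pre-S. DESeq2 gave 0 start-end calls at imminent division, TMM scaling gave 1 between the 33 h groups and 1725 DIs at imminent division, and an expectation per chromosome gave 1 start-end call between the 33 h groups. Flanks of 5 bins gave 16 separation calls at pre-S and 1 between the 33 h groups.

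Leaving out 1 library at a time, body calls ranged from 17 to 139 at imminent division, 30 to 143 at pre-S and 0 to 72 between these groups. Start-end calls ranged from 0 to 1 between 3 h and 10 h, 2 to 16 at imminent division and 0 to 1 between the 33 h groups. Separation calls ranged from 7 to 78 at imminent division, 0 to 8 at pre-S and 0 to 26 between them, and DIs from 68 to 670, 42 to 609 and 13 to 487. With 1 library left in a group, that library was assumed to vary like the others.

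The correlation of replicate differences between groups ran from -0.615 to 0.249, so replicate numbers showed no common pairing in body contacts. Whether replicates of the same number shared an animal or a culture is not in the labels. These correlations cannot settle it. With the replicate number as a block, body calls were 61 at imminent division and 103 at pre-S, separation calls 0 at pre-S and 6 between the 33 h groups, and start-end calls 1 between them. Depth limits single bin pairs, at a median of 6 to 24 start-end read pairs per library.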

Other observations

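Bodies and ends did not always move together. Grid1 gained start-end contacts at imminent division (log2 change 1.65) while its body contacts read 0.663 and 0.664 at 10 h and 0.681 and 0.653 at imminent division, and Gabrg3 lost separation (-0.32) with a body change of 0.05 (edgeR FDR 0.526). Vps13b, a lipid transfer protein gene of the lymphocyte or widely expressed list, was not called, at 1.26 and 1.31 at 10 h, against 1.27 and 1.32 at imminent division and, at pre-S, 1.44 and 1.32 (FDR 0.881 and 0.152).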
